A study of Mus musculus with 115 samples.

Results

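The genes described here are 9 genes with which the liver makes bile acids and moves bile acids and other organic anions: Cyp7a1, Cyp8b1, Cyp27a1, Baat, Abcb11, Slc10a1, Slco1a1, Slco1a4 and Slco1b2. They were found by their symbols in the table of liver probes, whatever their values, and make up 9 of its 18120 symbols. They had 14 probes, of which 13 from all 9 genes were bright enough to be tested, among 11317 tested of 25697. The study set hormones, gonads and sex chromosomes apart as sources of sex differences in gene expression. Liver RNA was read on 60 Illumina BeadChip arrays, 5 for each of 12 groups.

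All mice had a C57BL/6J background and came from the cross labelled FCG, whose Y chromosome has lost the testis gene Sry (written Y-) and whose Sry is inherited as a transgene. XX and XY- mice carry no Sry and form ovaries. XXSry and XY-Sry mice carry the transgene and form testes, so here a difference by gonad is also a difference by transgene. Every mouse, controls included, lost its gonads at 75 days of age and was given a capsule. B stands for a blank capsule, T for testosterone at 5 mM and E for 50 µg of estradiol, and livers were taken 3 weeks later. The groups therefore differ in hormone supplied to adults without gonads, and gonadal hormones before surgery are part of the gonad difference. The labels do not tie each array to a separate mouse, so the p-values measure the spread between these arrays.

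Hepatocytes turn cholesterol into bile acids, mainly through a route that starts with Cyp7a1 and otherwise through one that uses Cyp27a1, and Cyp8b1 sets how much of the product is cholic acid. The acids are joined to taurine by Baat, pumped into bile by Abcb11 and taken back from portal blood by Slc10a1, while the organic anion transporters Slco1a1, Slco1a4 and Slco1b2 bring in bile acids, steroid conjugates and drugs. Several of these genes are known to differ between male and female rodent liver.

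Levels are log2 normalised intensities, and a level is never compared between probes, since probes differ in brightness. A probe counts as called when its adjusted p in limma (Benjamini-Hochberg over the 11317 tested probes) is under 0.05. A set of 7 hepatocyte marker genes had a mean level between 11.83 and 12.58 in every array, and of 6 bile duct markers only 1 was bright enough to be tested, with Krt19 and Cftr detected in 0 arrays. In whole tissue, fewer cells of a type and less RNA per cell cannot be told apart. The array labelled XY- E replicate 5 read 12.26 for Hsd3b5, a steroid dehydrogenase of male mouse liver. Testosterone arrays spanned 11.15 to 12.95 for this gene, and the remaining estradiol arrays 4.50 to 11.19. The array labelled XY-Sry T replicate 5 had Xist at 6.63 and the Y-linked Eif2s3y at 4.53, inside the ranges of XX and XXSry arrays (6.35 to 7.40 and 4.32 to 4.96) and outside those of the other XY- and XY-Sry arrays (4.43 to 5.45 and 6.76 to 8.14). Both were kept under their labels. Without both, limma called as many of the member probes for testosterone, estradiol and gonad as with them.

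The sequences just upstream of the transcription start are shown for the 3 genes with the largest hormone differences, Slco1a1, Slco1a4 and Cyp8b1. They come from RefSeq on GRCm38.p6, which listed a promoter for 7 of the 9 genes. Each is written 5′ to 3′ on the minus strand, on which all 3 genes lie. Capitals mark the 9 bases of the HNF4 motif searched here. The windows are chr6:141946963-141947212 for Slco1a1, chr6:141856285-141856470 for Slco1a4, whose last base is at position -65 from the start listed, so that no transcribed base of another transcript is shown, and chr9:121916306-121916555 for Cyp8b1.
Slco1a1: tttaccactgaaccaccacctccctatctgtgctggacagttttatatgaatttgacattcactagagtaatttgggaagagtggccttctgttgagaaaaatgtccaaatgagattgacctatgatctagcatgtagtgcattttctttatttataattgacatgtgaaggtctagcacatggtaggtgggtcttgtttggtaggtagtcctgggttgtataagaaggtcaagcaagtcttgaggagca
Slco1a4: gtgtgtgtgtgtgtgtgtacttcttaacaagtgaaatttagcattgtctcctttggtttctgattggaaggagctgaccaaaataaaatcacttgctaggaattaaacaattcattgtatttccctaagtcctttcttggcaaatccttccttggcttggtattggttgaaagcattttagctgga
Cyp8b1: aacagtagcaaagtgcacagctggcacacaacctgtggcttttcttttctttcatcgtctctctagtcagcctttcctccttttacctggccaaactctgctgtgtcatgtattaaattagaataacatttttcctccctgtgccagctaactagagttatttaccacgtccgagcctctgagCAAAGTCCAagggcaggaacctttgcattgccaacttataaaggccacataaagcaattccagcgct
The Cyp8b1 window holds CAAAGTCCA at position -67 from the start site, and 0.384% of 32851 promoter windows of 250 bases hold it on either strand. The motif TTCNNNGAA of STAT5 lies in the windows of Slc10a1 and Slco1b2 and in 7.02% of all windows. Neither of these motifs, nor CAAGGTCA of LRH-1 (1.33%), the inverted repeat of FXR (0.00609%) or the palindrome of HNF1 (0.00913%), was found in the Slco1a1 or Slco1a4 window. A match is a run of letters and no match concerns this window alone.

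Testosterone raised Slco1a1 and Cyp8b1, raised Cyp27a1 on some of its probes and lowered Slco1a4. Over the 4 genotypes, Cyp8b1 was 2.0-fold higher and Slco1a4 1.67-fold lower with testosterone than with a blank capsule. Slco1a1 was 3.40-fold higher, a size that is uncertain because 2 of 20 blank arrays detected it, and its log2 difference was 0.58 without background correction against 1.76 with it. limma called 5 of the 13 probes, in 4 of the 9 genes, where it called 19.1% of all tested probes. Of the 5, 4 were higher (8.17% of all probes) and 1 was lower (10.9%). Under median centring of the arrays it called 2 higher and 1 lower, and 12.1% of all probes. Markers of other cell types were lower with testosterone in 3 of 6 tested macrophage genes, 2 of 2 lymphocyte genes, 2 of 5 stellate genes, 1 of 5 endothelial genes and 0 of 5 neutrophil genes. The neutrophil genes Camp, Ngp, S100a9 and Ltf were detected in at most 12 of 60 arrays, so a fall could hardly show. Marco (macrophage), Cd3g (lymphocyte), Lyve1 (endothelial) and Col1a1 (stellate) were detected in 15, 11, 11 and 5 of 60 arrays. They were bright enough to be tested through few arrays only, so counts that include them are little support for a fall. The part of these cell types in the differences of the members was not tested. The median difference of the 13 probes was 0.17 on the log2 scale, against 0.00 over all tested probes.

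**Figure D1:**
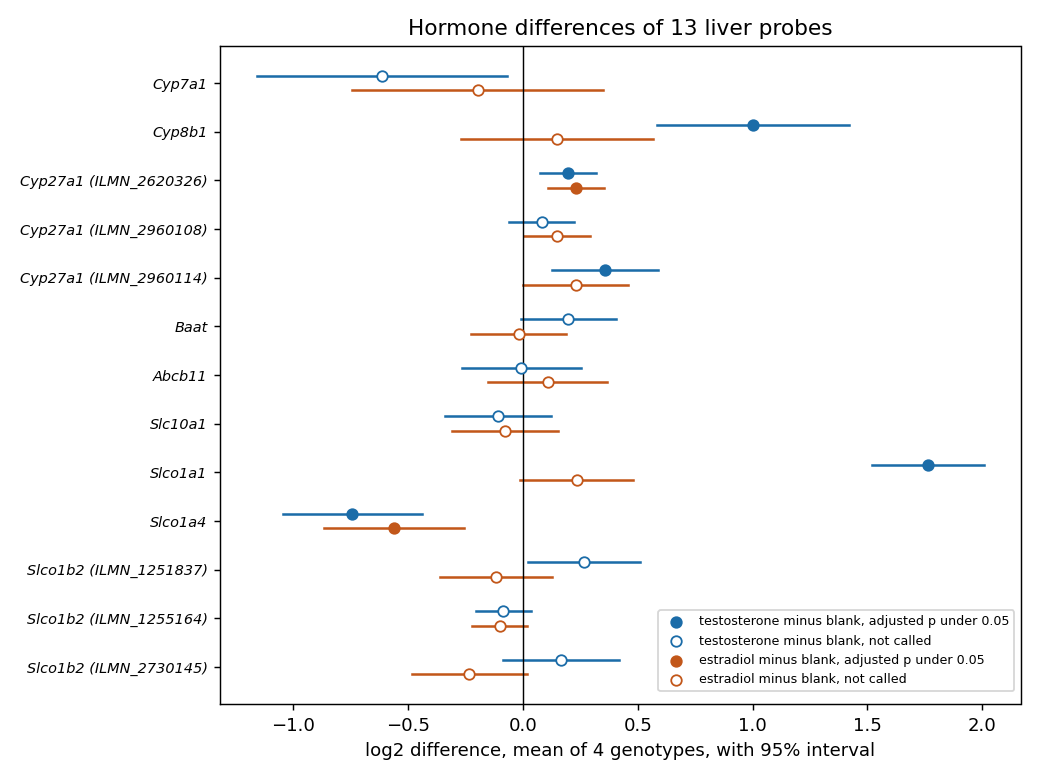
Difference from blank of each tested probe with testosterone (blue) and with estradiol (orange), as log2 values averaged over 4 genotypes, with 95% intervals (horizontal axis) and genes on the vertical axis; filled points have an adjusted p under 0.05 in limma. Slco1a1 lies farthest to the right with testosterone at 1.76, and Slco1a4 lies to the left of 0 with both hormones.

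In the route that makes the acids, Cyp8b1, the sterol 12α-hydroxylase, had the largest testosterone difference of the members. In XX mice the 5 blank arrays read 13.36, 11.09, 12.63, 12.82 and 12.01, and the testosterone arrays read 13.66, 13.49, 12.87, 13.61 and 13.15. Blank arrays of XY- mice read 11.91, 12.81, 12.21, 12.91 and 12.26, below all of the testosterone arrays at 13.71, 13.30, 13.12, 13.97 and 13.04. The XY- groups did not overlap, while 1 XX blank array lay among the XX testosterone arrays. With Sry the group means were lower under the blank and testosterone capsules. Under estradiol the mean was 12.32 with Sry and 12.23 without. The gonad difference over all treatments, -0.33, was not called (adjusted p = 0.463 in limma). XXSry blank arrays read 12.01, 10.92, 11.69, 12.15 and 12.68, against 12.51, 13.88, 13.28, 12.17 and 12.08 with testosterone. XY-Sry blank arrays read 10.88, 12.24, 11.92, 11.80 and 12.21, against 12.85, 13.69, 13.19, 13.04 and 11.98. These pairs overlapped, the second of them only through XY-Sry T replicate 5, one of the arrays that went against its label. The mean over genotypes was 12.13 ± 0.66 (SD, n = 20) with a blank capsule and 13.13 ± 0.58 (SD, n = 20) with testosterone. Cyp8b1 rose by 1.003 (SE 0.21, adjusted p = 0.000292 in limma), with the same sign in 4 of 4 genotypes. Within the 3 slides that held both treatments the differences were 1.13, 0.62 and 0.40.

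Cyp7a1, the rate-limiting enzyme of the main route, was not called for testosterone. Its blank arrays lay between 11.48 and 13.71 (median 12.85, n = 20) and its testosterone arrays between 10.30 and 13.77 (median 12.25, n = 20). The lowest of these came from mice with Sry. XXSry testosterone arrays split into 12.88 and 13.23 on one side and 10.30, 10.36 and 10.88 on the other, and XY-Sry arrays read 13.12, 13.13, 13.77, 11.41 and 10.61. In XX and XY- mice the testosterone arrays spanned 11.14 to 12.70 and 11.58 to 13.08, inside or close to the blank ranges of 11.48 to 12.86 and 11.55 to 13.71. The difference was -0.61 (95% interval -1.16 to -0.07, adjusted p = 0.107 in limma). Its sign was the same in 4 of 4 genotypes, and leaving out XXSry T replicate 2 alone gave -0.72 with an adjusted p of 0.0491 in limma. Within slides, however, it was 0.09, -0.07 and -1.88, so that it was large in 1 of the 3 slides and above 0 in another. Cyp7a1 and Cyp8b1 thus stood on opposite sides of 0, with only the second called.

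Cyp27a1, the mitochondrial sterol 27-hydroxylase, was read by 3 probes. On ILMN_2960114 the blank arrays ranged from 10.88 to 12.53 (median 11.47) and the testosterone arrays from 11.24 to 12.47 (median 11.90), a difference of 0.36 (SE 0.11, adjusted p = 0.0201 in limma). ILMN_2620326 gave 12.48 to 13.21 (median 12.68) and 12.66 to 13.24 (median 12.98), a difference of 0.20 (SE 0.06, adjusted p = 0.017 in limma). Within slides these probes gave 0.26, 0.17 and 0.23, and 0.11, 0.19 and 0.19. On ILMN_2620326 the XX mean was 12.94 with testosterone and 12.96 with a blank capsule, while the other genotypes were higher with testosterone. On ILMN_2960108 the difference was 0.08 and was not called (adjusted p = 0.477 in limma). The arms overlapped widely on all of the probes, and both calls were small. Median centring ended both, at 0.29 (adjusted p = 0.326) and 0.11 (adjusted p = 0.569 in limma), and slide as a term of the model ended that of ILMN_2960114, at 0.19 (adjusted p = 0.0891 in limma).

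For conjugation and export, no call was made. Baat, which joins bile acids to taurine, had group means from 9.32 to 9.78, and its testosterone difference was 0.20 (95% interval -0.01 to 0.41, adjusted p = 0.186 in limma). Abcb11, the bile salt export pump, stayed between 10.46 and 11.40 in blank arrays and between 10.54 and 11.44 in testosterone arrays. Its difference was -0.01 (95% interval -0.27 to 0.25, adjusted p = 0.979 in limma).

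Among the uptake genes, Slco1a1, an organic anion transporter of the sinusoidal membrane, separated the testosterone arrays from all blank arrays. Testosterone arrays of XX mice read 7.22, 7.21, 6.68, 6.13 and 6.48, and blank arrays of the same genotype read 4.59, 4.89, 4.76, 5.69 and 4.87. In XY- mice they read 7.04, 6.95, 6.73, 6.73 and 6.48 against 4.83, 5.63, 4.92, 5.25 and 4.64. No array of one treatment reached the other in these genotypes, although the XX blank replicate 4 lay well above its group. XXSry arrays gave 6.50, 6.92, 6.89, 6.06 and 6.69 with testosterone and 5.07, 4.82, 4.78, 4.82 and 4.59 without. XY-Sry arrays gave 6.85, 6.79, 5.98, 7.04 and 6.05 with testosterone and 4.68, 4.63, 5.01, 5.00 and 4.67 without. The lowest testosterone array, at 5.98, was above the highest blank array, at 5.69. Slco1a1 was detected (detection p under 0.01) in 20 of 20 testosterone arrays and in 2 of 20 blank arrays.

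The Slco1a1 difference was 1.76 (SE 0.12, adjusted p = 1.12e-17 in limma). The fitted values were 1.79 in XX, 1.73 in XY-, 1.79 in XXSry and 1.74 in XY-Sry, each called in limma, where 2.51%, 2.01%, 3.42% and 1.76% of all tested probes were called. Its interaction with gonad was 0.01 (SE 0.24, adjusted p = 1 in limma). Within slides it was 2.07, 1.75 and 1.49. In blank arrays the gene was detected in 1 of 5 arrays of XX, 1 of 5 of XY- and 0 of 5 of XXSry and XY-Sry, so the sizes cannot be compared between genotypes. In XXSry and XY-Sry only a bound holds. Against the lowest level of a detected probe on each blank array, Slco1a1 was at least 2.16-fold higher with testosterone in XXSry and at least 1.91-fold higher in XY-Sry. Over the 12 group means the tested probes most like Slco1a1 were those of Srd5a1, a steroid 5α-reductase (r = 0.981), and Hsd3b5 (r = 0.976). These correlations describe 12 means that share arrays and treatments.

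**Figure D2:**
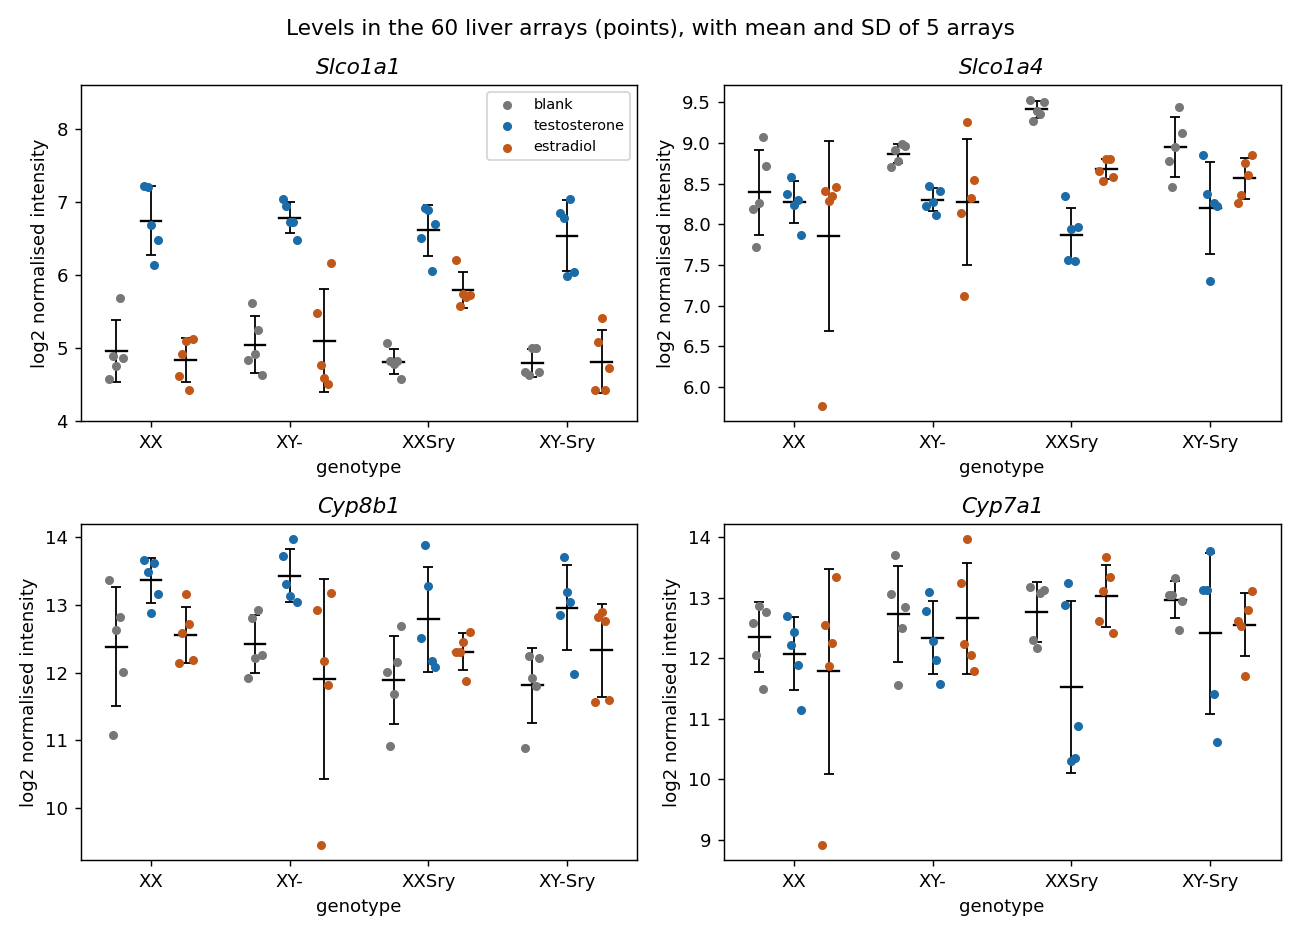
Levels (log2 normalised intensity, vertical axes) of Slco1a1, Slco1a4, Cyp8b1 and Cyp7a1 in 60 liver arrays by genotype (horizontal axes), each point an array coloured by treatment, with the mean and SD of 5 arrays in black. Testosterone arrays of Slco1a1 lie between 5.98 and 7.22, above every blank array, while the groups of Cyp7a1 overlap.

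Slco1a4, a related uptake transporter encoded near Slco1a1 on chromosome 6, moved the other way. Its highest group was XXSry with a blank capsule, at 9.52, 9.27, 9.39, 9.36 and 9.51, and testosterone arrays of that genotype read 8.34, 7.56, 7.94, 7.55 and 7.96. XY-Sry arrays read 8.78, 8.46, 8.95, 9.44 and 9.12 with a blank capsule and 8.85, 8.37, 7.30, 8.26 and 8.23 with testosterone. The XXSry groups did not overlap, and the XY-Sry groups overlapped through 1 testosterone array at 8.85. Without Sry the separation was smaller. XY- arrays read 8.70, 8.91, 8.78, 8.98 and 8.96 against 8.23, 8.47, 8.28, 8.12 and 8.41, again with no overlap. XX arrays read 8.19, 7.72, 8.27, 9.08 and 8.71 against 8.37, 8.58, 8.24, 8.30 and 7.87, and these intermixed.

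Slco1a4 fell by 0.74 with testosterone (SE 0.15, adjusted p = 0.00023 in limma), with the same sign in 4 of 4 genotypes. The difference was -0.12 in XX, -0.57 in XY-, -1.54 in XXSry and -0.75 in XY-Sry. Of these the XXSry value was called (adjusted p = 0.000748 in limma). Within the genotypes with Sry limma called 4 of 13 probes for testosterone (9.14% of all tested probes), and within those without it called 2 (7.06%), Slco1a1 and Cyp8b1. For Slco1a4 these testosterone differences were -1.14 and -0.34, and the interaction of -0.80 (SE 0.30) was not called (adjusted p = 0.707 in limma), so that a difference between gonad types was not shown. Within slides the differences were -0.47, -0.78 and -1.14. The testosterone arrays lowest for Slco1a4 in mice with Sry, XXSry T replicate 4 at 7.55 and XY-Sry T replicate 3 at 7.30, also had the highest acute phase levels of the testosterone arrays, with Lcn2 at 12.76 and 12.77. XXSry T replicate 2 was as low for Slco1a4, at 7.56, with an acute phase mean of 8.16, which ranked 56 of 60 arrays. The part of the acute phase in the difference was not tested. Slc25a11 (r = 0.956) and Zadh2 (r = 0.952) were the other genes whose 12 group means were most like those of Slco1a4.

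Slco1b2, the third of the uptake transporters of this family, was not called for testosterone on any of its 3 probes, with differences of 0.27 (ILMN_1251837), -0.09 (ILMN_1255164) and 0.17 (ILMN_2730145) and adjusted p of 0.124, 0.345 and 0.395 in limma. Slc10a1, the sodium-dependent bile acid uptake carrier NTCP, is known to be abundant in hepatocytes, but its probe was detected in 13 of 60 arrays. Its testosterone difference was -0.11 (95% interval -0.34 to 0.12). A second Slco1a4 probe, ILMN_2648990, was detected in 0 of 60 arrays and was not tested.

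Over the 4 genotypes, estradiol lowered Slco1a4 and raised 1 probe of Cyp27a1. limma called 2 of 13 probes, where it called 6.82% of all tested probes, 1 higher (3.55%) and 1 lower (3.27%). Under median centring the 2 calls were both lower, and 12.3% of all probes were called. The estradiol and testosterone differences share the same 20 blank arrays. The median difference was -0.02 over the 13 probes and -0.02 over all.

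Slco1a4 with estradiol read 5.77, 8.41, 8.28, 8.34 and 8.46 in XX arrays and 8.14, 7.12, 9.26, 8.32 and 8.55 in XY- arrays. With Sry it read 8.66, 8.54, 8.81, 8.80 and 8.58 in XXSry arrays and 8.26, 8.35, 8.75, 8.61 and 8.85 in XY-Sry arrays. The XXSry estradiol arrays lay below every XXSry blank array, the other genotypes overlapped, and XX E replicate 1 stood far below its group. Slco1a4 fell by 0.56 (SE 0.15, adjusted p = 0.0139 in limma), with the same sign in 4 of 4 genotypes, and the difference was -0.43 without XX E replicate 1 (adjusted p = 0.0165 in limma). In XX mice the other estradiol arrays, at 8.28 to 8.46, lay about the blank mean of 8.39. Within the 2 slides that held blank and estradiol arrays the Slco1a4 difference was -0.92 and -0.32, the first on the slide that held XX E replicate 1.

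On the Cyp27a1 probe ILMN_2620326, estradiol arrays ranged from 12.49 to 13.23 (median 12.995), against 12.48 to 13.21 (median 12.68) with a blank capsule. The difference was 0.23 (SE 0.06, adjusted p = 0.0112 in limma), and 0.12 and 0.40 within slides. Within the genotypes with Sry it was 0.43 and was the only member probe called (adjusted p = 0.0014 in limma; 1.78% of all probes were called), but the interaction with gonad of 0.40 (SE 0.12) was not (adjusted p = 0.264 in limma). XXSry estradiol arrays spanned 12.98 to 13.23 and XY-Sry ones 12.95 to 13.17, above the blank ranges of 12.49 to 12.83 and 12.48 to 12.74. The XY- mean was 12.98 with estradiol and 12.81 with a blank capsule. In XX mice the mean was lower with estradiol, at 12.86 against 12.96. Under median centring the difference over all genotypes was 0.04 and the call ended (adjusted p = 0.822 in limma). The other Cyp27a1 probes gave 0.15 and 0.23, with adjusted p of 0.226 and 0.245 in limma.

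Slco1a1 was not called for estradiol over the 4 genotypes (0.23, 95% interval -0.01 to 0.48, adjusted p = 0.273 in limma). Estradiol arrays of XXSry mice read 6.21, 5.58, 5.75, 5.70 and 5.73, all detected and all above the XXSry blank arrays. XX estradiol arrays read 4.63, 4.92, 5.10, 4.42 and 5.13, and XY-Sry ones read 4.44, 5.08, 5.42, 4.43 and 4.73, with 0 of 5 detected in each. XY- estradiol arrays read 5.48, 4.77, 4.59, 4.52 and 6.17, the last being the replicate 5 that lay with the testosterone arrays. In XXSry the difference from blank was 0.98 (SE 0.24, adjusted p = 0.0586 in limma), which as a bound is at least 1.23-fold higher. Set against XY-Sry estradiol arrays, a comparison added after these values were seen, it was also 0.98, with an unadjusted p of 0.000193 in limma and an adjusted p of 0.331. In the same XXSry estradiol arrays Hsd3b5 lay between 8.47 and 11.19, against 4.99 to 7.36 in XXSry blank arrays, while Cux2 (Cutl2 in the array table), which testosterone lowers, lay between 6.998 and 9.60, against 8.09 to 8.38. This look at Hsd3b5 and Cux2 in XXSry mice was chosen after their values were seen.

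XX E replicate 1 was low for several members at once. Abcb11 read 8.45 there and 10.87 to 11.18 in the other XX estradiol arrays, Baat 8.57, Cyp7a1 8.92 and Cyp27a1 (ILMN_2960114) 10.60. This array and XY- E replicate 2 had the highest means of 5 acute phase genes of all arrays, 12.99 and 13.09, with Lcn2 at 14.67 and 14.80. XY- E replicate 2 was also low for Cyp8b1, at 9.46, and for Slco1a4, at 7.12, but its Abcb11 was the highest of the estradiol arrays, at 11.54, and its Cyp7a1 was 12.24. Slco1a4 was low in both arrays and Abcb11 in 1 of them. XX E replicates 4 and 2 ranked 3 and 4 for the acute phase mean, at 11.79 and 11.77. Slco1a4 was between 8.28 and 8.46 in the XX estradiol arrays other than replicate 1. XY-Sry E replicate 5, with Lcn2 at 13.59, had the highest Slco1a4 of its group, at 8.85. The part of the acute phase in these levels was not tested. Neutrophil markers rose with estradiol in 4 of 5 tested genes and macrophage markers in 4 of 6, with mean levels of 6.33 ± 1.51 (SD, n = 20) and 8.07 ± 0.54 (SD, n = 20) against 5.09 ± 0.59 and 7.56 ± 0.49 in blank arrays. Neutrophil means went from 5.03 to 7.76 in XX, 5.63 to 7.01 in XY-, 4.82 to 4.98 in XXSry and 4.88 to 5.57 in XY-Sry. Macrophage means were 8.05 with both capsules in XY- and rose in the other genotypes. The neutrophil genes Camp, Ngp, S100a9 and Ltf were detected in 5, 7, 11 and 12 of 60 arrays. They passed the filter through the few arrays where they are high, so their calls are no support for a rise. The macrophage gene Marco, detected in 15 of 60 arrays, limits the macrophage count as well. The part of these cell types in the differences of the members was not tested.

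**Figure D3:**
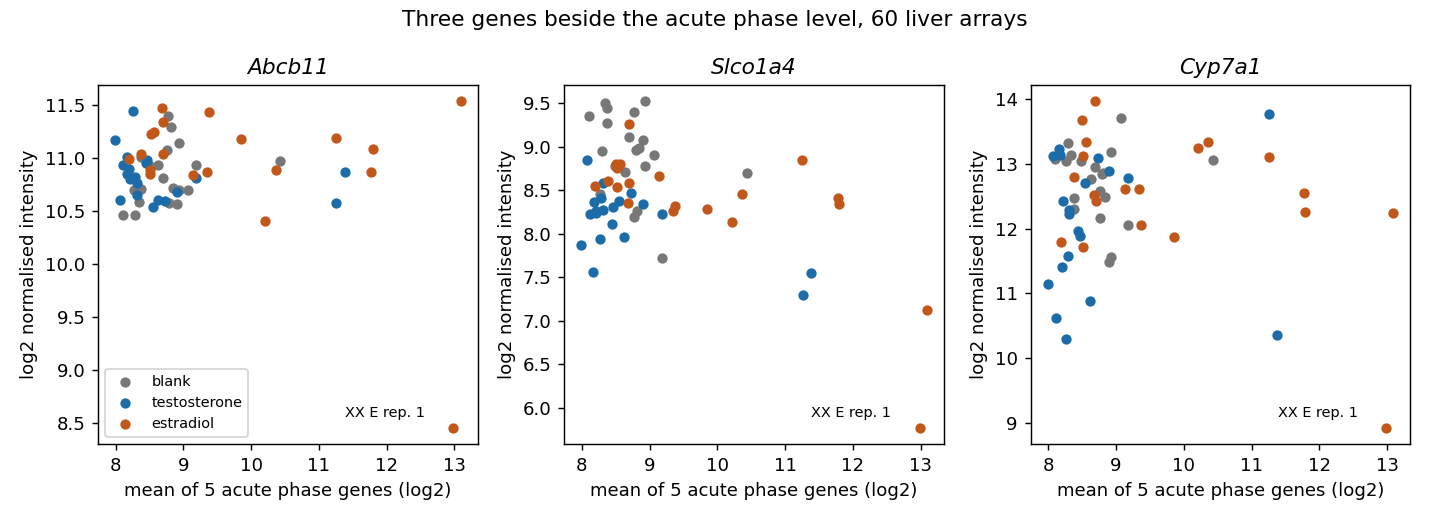
Levels (log2 normalised intensity, vertical axes) of Abcb11, Slco1a4 and Cyp7a1 against the mean log2 level of 5 acute phase genes (Saa1, Saa2, Lcn2, Orm2, Hp; horizontal axes) in 60 liver arrays, coloured by treatment. XX E replicate 1 is lowest in each panel, at 8.45, 5.77 and 8.92, while XY- E replicate 2, farthest to the right at 13.09, is low for Slco1a4 only among these genes.

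The hormones were also set against each other. limma called 4 of 13 probes higher with testosterone than with estradiol (7.78% of all probes were called in that direction, 18.4% in either). Slco1a1 was higher by 1.53 (SE 0.12, adjusted p = 3.88e-15 in limma), with testosterone arrays between 5.98 and 7.22 and estradiol arrays between 4.42 and 6.21. The arms overlapped through XXSry E replicate 1 and XY- E replicate 5. Cyp8b1 was higher by 0.85 (SE 0.21, adjusted p = 0.00178 in limma), with 11.98 to 13.97 against 9.46 to 13.17. Without XY- E replicate 5 these values were 1.60 and 0.93. Within the 2 slides that held both hormones the differences were 1.87 and 1.93 for Slco1a1 and 1.80 and 1.18 for Cyp8b1. The 1.80 came from the slide that held XY- E replicate 2, which read 9.46 for Cyp8b1. Markers of other cell types differed as well, and were lower with testosterone in 6 of 6 tested macrophage genes, 5 of 5 neutrophil genes, 2 of 5 stellate genes, 2 of 5 endothelial genes and 1 of 2 lymphocyte genes. With testosterone the macrophage genes had a mean level of 7.22 ± 0.34 and the neutrophil genes of 5.03 ± 0.23 (SD, n = 20), below the estradiol means given above. Of the neutrophil genes, Camp, Ngp, S100a9 and Ltf were detected in at most 12 of 60 arrays, and the limit of the filter given above holds for this count too. Counts that include Marco, Cd3g, Lyve1 or Col1a1 are limited as well, since these were detected in 15, 11, 11 and 5 of 60 arrays. The part of these cell types in the differences was not tested.

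For Slco1b2, the comparison of the hormones gave calls on 2 of its 3 probes. ILMN_1251837 ranged from 9.68 to 11.004 (median 10.42) with testosterone and from 8.71 to 10.68 (median 10.05) with estradiol, a difference of 0.38 (SE 0.12, adjusted p = 0.0198 in limma). Median centring ended this call (0.48, adjusted p = 0.0717 in limma). ILMN_2730145 ranged from 5.97 to 7.502 (median 6.91) and from 5.16 to 7.29 (median 6.64), a difference of 0.40 (SE 0.13, adjusted p = 0.0186 in limma), which was 0.18 without background correction. Within slides the differences were 0.59 and 0.31 on the first of these probes and 0.61 and 0.63 on the second. The arms overlapped on both. The third probe, ILMN_1255164, gave 0.02 (95% interval -0.10 to 0.14), so the probes disagree. Slco1a4, lower than blank with both hormones, differed by -0.18 between them (95% interval -0.49 to 0.12), and Abcb11 by -0.12, or by -0.24 with an adjusted p of 0.041 in limma without XX E replicate 1.

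Gonad type made 1 call among the 13 probes, against 3.4% of all tested probes (0.548% higher with Sry). With Sry, Slc10a1 read 5.35 ± 0.39 (SD, n = 30), and in mice without Sry it read 5.02 ± 0.32 (SD, n = 30), a difference of 0.33 (SE 0.09, adjusted p = 0.0277 in limma). The ranges were 4.71 to 6.36 and 4.47 to 5.69 and overlapped widely. It was detected in 10 of 30 and 3 of 30 arrays, so most of these values are near background, and without background correction the difference was 0.09. The probe met the filter of detection in 5 arrays only through the mice with Sry, where it is higher, so the call is no support for a difference, and without that filter it ended (adjusted p = 0.0557 in limma). It also ended under median centring (0.29, adjusted p = 0.207 in limma). In estradiol arrays alone the difference was 0.57 and was the 1 call of 13 (adjusted p = 0.043 in limma; 2.44% of all probes were called), with 5 of 10 detected against 0 of 10, and the limit set by the filter holds for it too. All 6 tested macrophage markers, 4 of 5 neutrophil markers and 2 of 2 lymphocyte markers were lower with Sry. Of the stellate and endothelial markers, 0 of 5 each were. The part of these cell types in the Slc10a1 difference was not tested. The filter limits the neutrophil count too, since Camp, Ngp, S100a9 and Ltf were detected in at most 12 of 60 arrays. Marco and Cd3g, detected in 15 and 11 of 60, limit the macrophage and lymphocyte counts. In blank arrays Slco1a4 read 9.18 ± 0.35 (SD, n = 10) in mice carrying Sry, against 8.63 ± 0.43 (SD, n = 10) in the others, a difference of 0.55 that was not called (adjusted p = 0.273 in limma).

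Sex chromosome complement called 0 of 13 probes (0.186% of all tested probes were called), and 0 of 13 had an unadjusted p under 0.05 in limma. The XX minus XY difference was 0.11 for Slco1a1 (95% interval -0.09 to 0.31), 0.07 for Cyp8b1 (-0.27 to 0.41), -0.11 for Slco1a4 (-0.36 to 0.13) and -0.35 for Cyp7a1 (-0.80 to 0.09). XY-Sry T replicate 5, with Xist and Eif2s3y in the ranges of XX arrays, counted as XY here. Without it 0 member probes were called, with Cyp7a1 at -0.43 (SE 0.22) and Slco1b2 ILMN_2730145 at -0.21 (SE 0.10). The unadjusted count was made only with this array included. Given the value and SE of ILMN_2730145 without it, that count of 0 may depend on this array. None of the 4 interactions of a hormone with gonad or sex chromosome was called for a member. Over all tested probes these gave 0.124% (testosterone by gonad), 0.0795% (estradiol by gonad) and 0% (both by sex chromosome). At an unadjusted p under 0.05, limma had 1 member probe for testosterone by gonad, Slco1a4, and 4 for estradiol by gonad, on Cyp27a1 (2 probes), Slco1a1 and Slco1b2, where 5.82% and 5.5% of all tested probes were under that level.

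**Figure D4:**
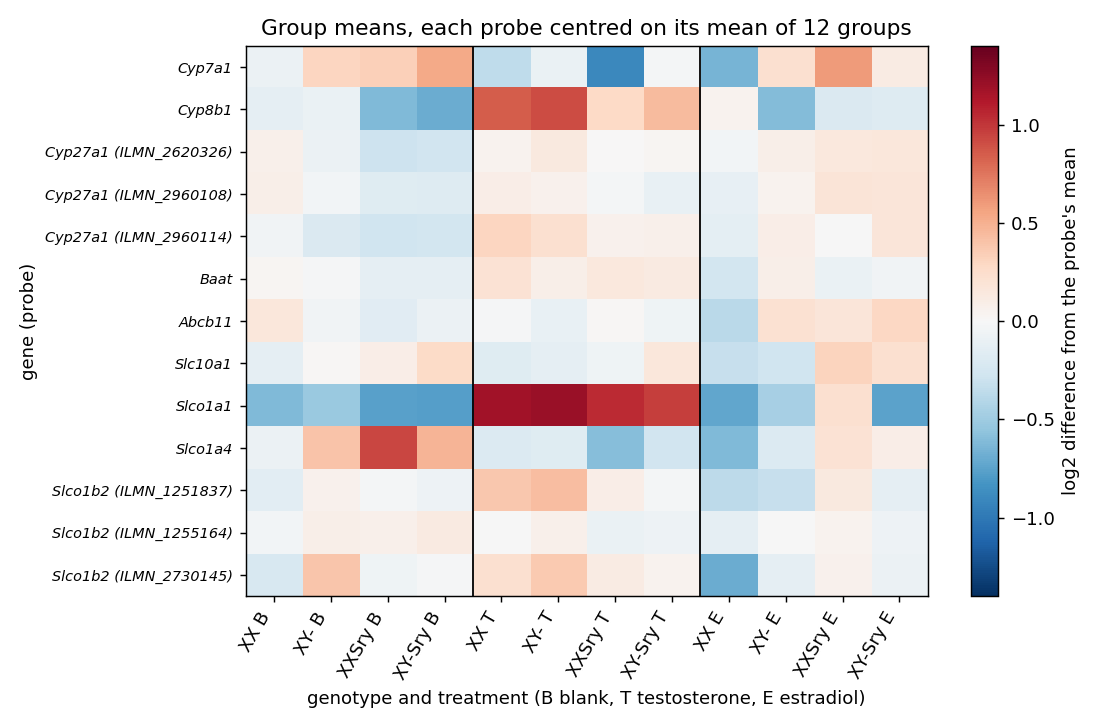
Group means of the 13 tested probes (rows) in 12 groups (columns: genotype and treatment, blank then testosterone then estradiol), as log2 differences from each probe's mean over the groups, red above and blue below. The Slco1a1 row is red in the 4 testosterone groups and in XXSry with estradiol, and the Slco1a4 row is most red in XXSry with a blank capsule.

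Ordered by level, the 12 groups of Slco1a1 ran from XY- T (6.79) through XX T (6.74), XXSry T (6.61) and XY-Sry T (6.54) to XXSry E (5.80), and from XY- E (5.10) down to XY-Sry B (4.80). The step from XY-Sry T to XXSry E, 0.75, was the only one between neighbours larger than both of their SDs. For Slco1a4 the order began with XXSry B (9.41), XY-Sry B (8.95) and XY- B (8.87) and ended with XXSry T (7.87) and XX E (7.85), and 2 steps were that large, after XXSry B and after XY- B. XX E came last through replicate 1, at 5.77, and its other arrays read 8.28 to 8.46. The 4 testosterone groups of Cyp8b1, from 13.43 in XY- to 12.78 in XXSry, stood above the other 8, but no step between neighbours was larger than their SDs. The same held for the other tested probes. The group means of Slco1b2 ILMN_1255164 spread least, over 0.25, and those of Slco1a1 most, over 1.99.

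Other genes of the pathway, from fixed lists, were read beside the members. Of 13 tested genes of bile acid synthesis, 3 rose and 2 fell with testosterone, with a median of 0.14. Of all tested probes, 8.17% were called higher and 10.9% lower with testosterone, with a median of 0.00. Cyp7b1, the oxysterol 7α-hydroxylase that acts after Cyp27a1, rose by 1.53 (adjusted p = 4.92e-14 in limma), from 11.50 to 13.04, and was also higher with Sry by 0.95. Acox2 and Hsd17b4, peroxisomal enzymes that shorten the side chain, rose by 0.43 and 0.19. Akr1d1, the Δ4-3-oxosteroid 5β-reductase, fell by 0.73 and Slc27a5, a bile acid CoA ligase, by 0.23. With estradiol 0 of the 13 were called, where 3.55% of all tested probes were called higher and 3.27% lower.

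Of 14 other transporters tested, 3 rose and 1 fell with testosterone (median -0.10). These were the efflux pump Abcg2 (0.55), the organic anion carrier Slc22a7 (0.34) and the phospholipid pump Abcb4 (0.32), which were higher, and the basolateral exporter Abcc3 (-0.39). With estradiol Atp8b1, a membrane lipid flippase, rose by 0.38 and the canalicular exporter Abcc2 fell by 0.27. Among 14 tested regulators 1 rose and 5 fell with testosterone (median -0.13) and 3 fell with estradiol (median -0.23). For both of these lists, the shares of all tested probes were 8.17% higher and 10.9% lower with testosterone (median 0.00). With estradiol they were 3.55% and 3.27% (median -0.02). Bcl6, a repressor more abundant in male mouse liver, rose by 1.12, and the female-biased Cux2 fell by 3.39, from 8.11 to 4.72. The nuclear receptors Nr1i3 (CAR) and Ppara fell by 0.67 and 0.43. With estradiol Ppara, Nr5a2 (LRH-1) and Rxra fell by 0.63, 0.24 and 0.24.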

How the data were processed

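Per the file headers, the deposited table gives the linear mean bead intensity of every probe per array, beside its detection p-value. The submitters' processing notes name lumi, with no role or version, but the lowest deposited intensity was 89.1 and array medians ranged from 124 to 159, so background and differences between arrays were still present. Detection p-values on the deposited scale served for background correction and for the filter. Of the 60 liver arrays, 31.8% to 41% of probes were detected; 115 columns of bead standard errors were not used. The number of arrays limits the precision. Array groups came from the labels.

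Background was removed with limma 3.58.1 (R 4.3.3), by normexp with control values inferred from detection p, and an offset of 16. Quantile normalisation and log2 followed. The offset understates differences of dim probes. Probes with a detection p under 0.01 in at least 5 arrays were tested with lmFit and eBayes on 12 group means. Hormone differences are hormone minus blank, gonad is with minus without Sry, and adjustment was by Benjamini-Hochberg within each comparison. The script was tested on simulated data. Slides held at most 2 treatments each, so the hormone differences are partly confounded with slide, and differences within slides are given beside the hormone calls. The slide listed first for testosterone had no XY-Sry blank array, and the slide listed first for estradiol no XXSry one. Differences within those slides therefore also mix genotypes. A bound sets the bright group's mean against the dim group's mean of, per array, the higher of the lowest detected signal and the probe's own. Symbols are those of the table, updated through RefSeq; promoters are RefSeq's on GRCm38.p6. No genome build of the array's design is named in the sources used here, so coordinates are printed only for the RefSeq promoter windows. Probes of related genes can share signal, which was not tested.

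The genes, the lists of other genes and the tests were chosen with earlier results of these data known. Named are all member probes, up to 3 called genes in each direction per list and hormone, and the 2 most similar probes for called members; exceptions are stated. Alternatives were median centring, no background correction, an offset of 50, no filter, slide as a fixed term or random block, array weights, and leaving out arrays.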

Additional observations from a re-analysis of the deposited data

Results flagged for a closer look

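Among the 156 groups of 5 arrays (13 probes in 12 groups), 13 had a single array whose distance to the nearest of the others exceeded 0.71 of the group's range, Dixon's critical value; chance alone gives about 1 in 20. XX E replicate 1 was such an array for 4 probes, each time as the lowest: Slco1a4 at 5.77, Abcb11 at 8.45, Baat at 8.57 and Cyp27a1 (ILMN_2960114) at 10.60. For Cyp27a1, XXSry B replicate 5 was also high on ILMN_2960114 at 11.99. On ILMN_2620326, XXSry E replicate 3 was high at 13.23 and XY-Sry T replicate 5, the array that went against its genotype label, was low at 12.66. Baat was high in XX B replicate 5 at 10.11. Slc10a1 was high in XY-Sry T replicate 4 at 6.36. Slco1a1 was high in XX B replicate 4 at 5.69 and in XXSry E replicate 1 at 6.21. On the Slco1b2 probe ILMN_1251837, XY- T replicate 2 was high at 11.004 and XY-Sry B replicate 1 was low at 9.45.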

How the results depend on the processing

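With median centring in place of quantile normalisation, which moved the median estradiol difference of all tested probes from -0.02 to -0.18, limma called 3 member probes for testosterone in place of 5 and 0 for gonad in place of 1. Without the filter on dim probes it called 0 for gonad, with Slc10a1 at an adjusted p of 0.0557. Median centring also ended the call of Slco1b2 ILMN_1251837 between the hormones (0.48, adjusted p = 0.0717) and added ILMN_2730145 for estradiol (-0.40, adjusted p = 0.0481). Array weights added Slco1a4 between the hormones (-0.31, adjusted p = 0.049). The cause of these changes was not tested. The calls of Slco1a1, Cyp8b1 and Slco1a4 for testosterone and of Slco1a4 for estradiol were made under every alternative run, and no difference changed sign with a call. Leaving out each array in turn gave 5 to 6 calls for testosterone, 2 for estradiol, 4 to 5 between the hormones and 1 for gonad. The Slco1a1 testosterone difference then lay between 1.73 and 1.81, that of Cyp8b1 between 0.92 and 1.07 and that of Slco1a4 between -0.78 and -0.69. The alternatives without both arrays that stood apart from their labels, and those for the difference between the hormones, were added after the data were seen. No paired analysis was possible because the labels give the arrays no replicate numbers; arrays share slides, and slide served as the block instead. Low signal over background limits Slco1a1 in blank arrays and Slc10a1 throughout.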

Other observations

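In inguinal adipose tissue, a tissue that makes no bile acids, most member probes were near background. All 3 Cyp27a1 probes were detected in 55 of 55 adipose arrays. The Slco1b2 probe ILMN_1255164 was detected in 16 of 55, Cyp8b1 in 10, Cyp7a1 in 6, Abcb11 in 3 and Baat in 1. Slc10a1 and Slco1a1 were detected in 0 of 55.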
